A study of Mus musculus with 11 samples.

Results

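Genes of bone morphogenetic protein (BMP), transforming growth factor beta (TGF-beta) and anti-Müllerian hormone (AMH) signalling were followed through an RNA-seq series on knockdown of Akt1, a protein kinase gene. The 38 genes were taken by gene symbol from a list written for this description, out of 24490 genes counted in the series, and all 38 symbols were found. They are 8 ligands, 11 receptors, 8 Smads, 6 antagonists and regulators, and 5 response genes. The cells were primary granulosa cells of the ovary, from RjOrl:SWISS mice. Granulosa cells surround the oocyte in the follicle, make steroid hormones and respond to AMH and BMPs. In every group the cells received 30 pmol of siRNA by lipofection with Lipofectamine RNAiMax, the mix was taken off at 5 h and RNA was extracted at 30 h. The 8 knockdown libraries came from 4 pools, with 2 libraries each, and each pool held 3 of 4 siRNAs against Akt1. Pool 2 held siRNAs 6, 8 and 9, pool 3 held 6, 7 and 9, pool 1 held 6, 7 and 8, and pool 4 held 7, 8 and 9. Pool 2 was therefore the only pool without siRNA 7. The protocol and the library titles name the pools differently, and they were matched here by number. The 3 reference libraries, called scramble, received a nontargeting siRNA. The sources used here give neither the animals' age nor whether replicates were separate cultures. P-values therefore measure the spread between these libraries, which may be technical, and a pool cannot be told apart from the cultures that received it.

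Ligands of this family bind pairs of type I and type II serine/threonine kinase receptors. BMP and AMH receptors phosphorylate Smad1, Smad5 and Smad9, and TGF-beta and activin receptors phosphorylate Smad2 and Smad3; Smad4 joins either set to enter the nucleus. Smad6 and Smad7 inhibit the receptors, and the Id genes are classic direct targets of BMP signalling. In the ovary these pathways govern the recruitment and growth of follicles and the steroid output of granulosa cells.

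Libraries held 23851293 to 32643158 reads in genes. Levels are given as CPM, a gene's reads scaled to a fixed total of reads in genes, with library sizes adjusted by the TMM method. Akt1 itself had 53.8 to 79.6 CPM in the 8 pool libraries, against 530.2, 441 and 412 CPM with scramble. Scramble replicate 1 stood apart: its median correlation with the other libraries was 0.947, and that of every other library was at least 0.990. Among the members its levels moved with exon length, with a Pearson r of -0.75 between log2 exon length and its log2 difference from scramble replicates 2 and 3 over 37 genes, all from the same libraries. Over 13612 genes the r was -0.58. The median difference was -0.54 on the log2 scale over the members and -0.01 over all genes. The main counts of members called against scramble are therefore given with and without that library. Differences of single genes from scramble are given both ways for some genes only. The values of scramble replicate 1 are printed first among the 3 scramble values. Of 10 granulosa markers, Foxl2 had 109 to 203 CPM, and Fshr and Amh stayed under 1 CPM in every library. The granulosa markers, which include Amh and Amhr2, summed to 2845 and 3065 CPM with pool 2, 1921 to 2615 CPM with pools 1, 3 and 4, and 4107 CPM in scramble replicate 1 and 3219 and 3436 CPM in the other scramble libraries. Smooth muscle markers (5 of 5 above 1 CPM) summed to 3535 and 3649 CPM with pool 2, 1804 to 2355 CPM with pools 1, 3 and 4, and 5995 CPM in scramble replicate 1 and 3141 and 3748 CPM in the others. Theca and stroma markers (5 of 8 above 1 CPM, with Cyp17a1, Insl3 and Gli1 below it) summed to 1419 to 1983 CPM in all libraries, endothelial markers to 13.2 to 18.7 CPM, immune markers to 5.19 to 8.51 CPM and oocyte markers to 2.87 to 8.08 CPM. Surface epithelium markers (6 of 6 above 1 CPM in at least 1 library) summed to 152 and 157 CPM with pool 2, 98.7 to 126 CPM with pools 1, 3 and 4, and 183 CPM in scramble replicate 1 and 146 and 156 CPM in the others. The granulosa, smooth muscle and surface epithelium sums moved with the pools in the same direction as many members described here, and their part in the results was not tested. Such sums rest on their most abundant genes, and Inha made up most of the granulosa sum. Not every marker moved with its sum. Foxl2, Nr5a2, Des, Krt7 and Krt19 overlapped between pool 2 and pools 1 and 4, and Amhr2 was lower in pool 2 than in those pools. In such bulk samples, fewer cells of a type and less RNA per cell cannot be told apart.

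**Figure D1:**
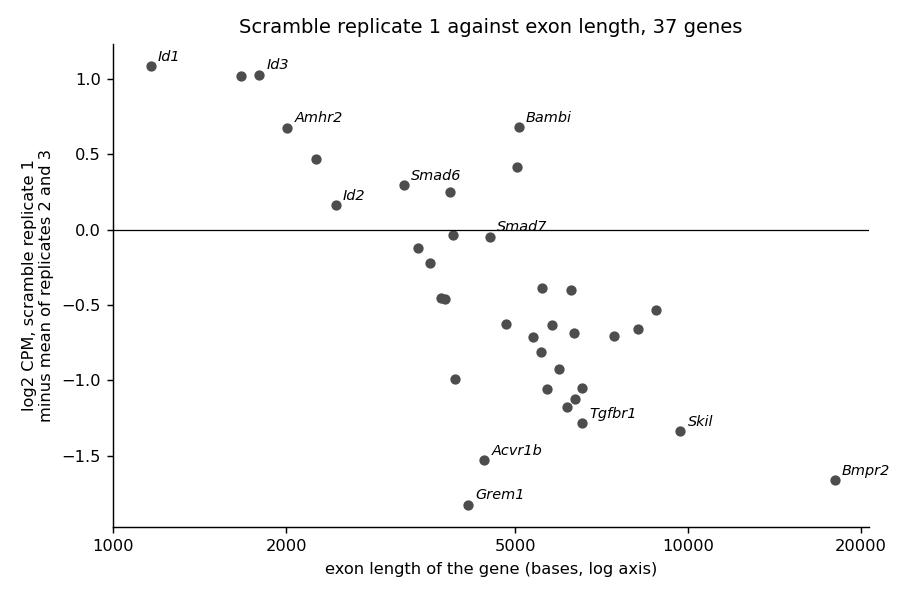
Difference of scramble replicate 1 from the mean of scramble replicates 2 and 3 in log2 CPM (offset 0.2), against the exon length of each gene (log axis), for the 37 members tested; each point is 1 gene. Short genes such as Id1 and Id3 lie above 0 and long genes such as Bmpr2 below it (r = -0.75).

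Per length of transcript, Id3, Id1 and a few receptors led, while the response genes Id4 and Tgfbi were among the lowest members, at 3.11 ± 0.441 and 1.01 ± 0.307 TPM. Id3 averaged 466 ± 148 TPM (transcripts scaled to a fixed total, after division by exon length; mean ± SD) over the 11 libraries, Tgfbr1 246 ± 63.5 TPM, Id1 238 ± 65.7 TPM, Amhr2 197 ± 19.5 TPM and Bmpr1a 175 ± 41.5 TPM. The same order does not separate neighbours beyond their spread: Tgfbr1 ranged from 106 to 354 TPM between libraries and Id1 from 176 to 419 TPM. Among ligands, Tgfb3 was highest at 134 ± 18.3 TPM and Tgfb1 and Tgfb2 followed at 43.5 ± 4.77 and 42.1 ± 8.87 TPM. Smad4 and Smad3 led the Smads at 122 ± 21.1 and 112 ± 24.7 TPM. Amh, the hormone that names one of the pathways, was at 1.09 ± 0.391 TPM and Bmp7 at 0.114 ± 0.0665 TPM, so the AMH receptor was abundant in cells with almost no AMH transcript. Amh had between 5 and 27 reads in a library, with 0.436 and 0.274 CPM with pool 2, 0.215 and 0.367 CPM with pool 3, 0.664 and 0.498 CPM with pool 1, and 0.427 and 0.435 CPM with pool 4, against 0.829, 0.418 and 0.216 CPM with scramble. Bmp7, a ligand made mainly by theca cells in rodents, had 0.0307 to 0.233 CPM and was the 1 member that did not pass the filter on low counts. All comparisons below are therefore over 37 members.

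**Figure D2:**
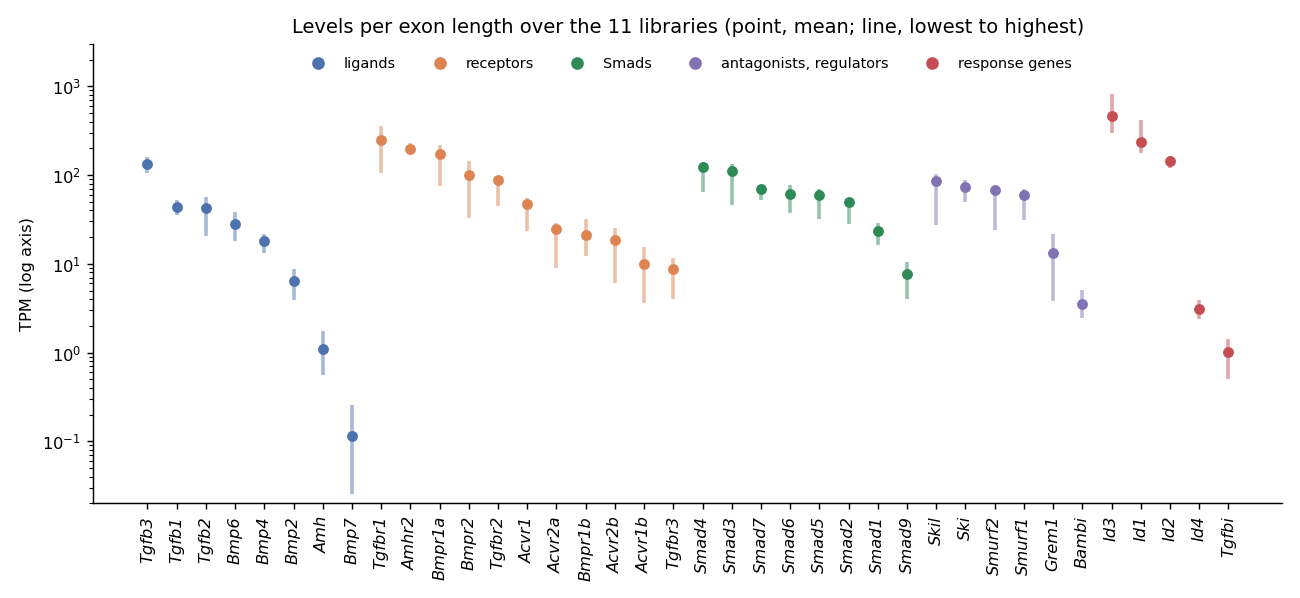
Level of each of the 38 genes in TPM (log axis), grouped by role and ordered by level; points are means over the 11 libraries and lines run from the lowest to the highest library. Id3 has the highest mean (466 TPM) and Bmp7 the lowest (0.114 TPM).

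Promoters are shown for 3 members with a pattern that many of the members below shared (pool 2 highest and pool 3 lowest), each with another role: Id3, a BMP target, Bmpr2, the BMP type II receptor, and Grem1, a secreted BMP antagonist. Sequences are the 250 bases before the RefSeq start site (GRCm38.p6), on the gene's strand. Capitals mark GGCGCC, the core of a GC-rich BMP response element, and CAGAC or its reverse complement GTCTG, a Smad binding motif. Both strands were searched. The windows are chr4:136143572-136143821 on the plus strand for Id3, chr1:59764029-59764278 on the plus strand for Bmpr2 and chr2:113758649-113758898 on the minus strand for Grem1. In the GENCODE annotation Id3 starts at 136143497 and Bmpr2 at 59763400, so their windows lie inside the genes as annotated there.
Id3: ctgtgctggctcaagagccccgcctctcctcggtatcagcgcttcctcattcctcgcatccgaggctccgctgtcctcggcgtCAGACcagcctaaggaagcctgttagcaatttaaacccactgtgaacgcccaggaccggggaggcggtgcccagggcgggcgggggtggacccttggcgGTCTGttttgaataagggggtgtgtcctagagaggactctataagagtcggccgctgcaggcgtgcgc
Bmpr2: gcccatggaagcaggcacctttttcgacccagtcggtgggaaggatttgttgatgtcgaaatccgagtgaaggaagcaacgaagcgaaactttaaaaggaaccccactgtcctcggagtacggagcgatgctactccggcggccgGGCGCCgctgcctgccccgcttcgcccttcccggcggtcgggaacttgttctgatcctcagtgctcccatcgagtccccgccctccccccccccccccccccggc
Grem1: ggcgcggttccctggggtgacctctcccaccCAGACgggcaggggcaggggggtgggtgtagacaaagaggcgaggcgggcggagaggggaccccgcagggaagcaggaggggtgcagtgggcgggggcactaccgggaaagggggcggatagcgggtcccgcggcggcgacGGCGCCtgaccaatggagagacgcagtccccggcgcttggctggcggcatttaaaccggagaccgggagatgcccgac
Id3 held CAGAC at -167 and GTCTG at -68 from the start site and no GGCGCC. Bmpr2 held GGCGCC at -105 and no CAGAC, and Grem1 held GGCGCC at -78 and CAGAC at -219. RefSeq windows were found for 27 of the 38 members. GGCGCC was present in 10 of those 27 (37.0%), against 17.2% of the windows of 10680 tested genes, while the median GC content was 69.2% in the members' windows and 60.0% in those of tested genes. CAGAC or GTCTG was present in 11 of 27 (40.7%), against 40.7% of the windows of tested genes. A match describes letters in the window and not a bound site.

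The comparison of all 8 pool libraries with scramble sets the Akt1 siRNAs, whatever the pool, against the nontargeting siRNA. With all libraries no member passed edgeR's quasi-likelihood test at a Benjamini-Hochberg adjusted p under 0.05, where 0.00715% of 13989 genes did (Akt1 alone). At an unadjusted p under 0.05 there were 8 members, where 28.9% of genes were. DESeq2 called 6 members (8.97% of genes) and limma-voom 0 (0.00715%). Without scramble replicate 1, 1 member was called, Tgfbr3, lower in the pools, where 0.469% of 14062 genes were called and 0.356% were called lower. In a fit that keeps the pools as separate groups, differences between pools do not count as error. The mean of the pools in such a fit gave 2 members called with all libraries (6.37% of genes). Without scramble replicate 1 it gave 21 (35.8% of genes). Without scramble replicate 3, which leaves replicate 1 with more weight, 7 members were called: Acvr1, Acvr2a, Acvr2b, Smad3 and Smad4 as higher in the pools and Id1 and Id3 as lower. In that fit 16.5% of 14143 genes were called, 4.16% as higher and 12.4% as lower. The median log2 difference of the members was -0.00032 with all libraries (-0.02 over all genes) and -0.11 without scramble replicate 1 (0.0036 over all genes). Acvr2b, Smad3 and Smad4 were higher in all 8 pool libraries than in all 3 scramble libraries, which is 8.11% of the members against 4.26% of genes, and no member was lower in all 8, where 4.2% of genes were. Against scramble replicates 2 and 3 alone, the same 3 genes were higher in all 8 pool libraries, where 7.94% of genes were. Against those 2 libraries Tgfbr1, Tgfbr3 and Smad5 were lower in all 8, which is 8.11% of the members and 8.07% of genes.

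Taken pool by pool, the members split. Pool 3 had 6 of 37 members called against scramble with all libraries, Bmp6 as higher and Tgfb3, Bmpr1b, Smad6, Bambi and Id3 as lower, where 11.2% of 14144 genes were called, 4.33% as higher and 6.84% as lower. Pools 1, 2 and 4 had 0 called, where 1.93%, 0.00707% and 2.57% of genes were. At an unadjusted p under 0.05 there were 6, 0 and 6 members in pools 1, 2 and 4, where 14.8%, 4.62% and 16.1% of genes were. DESeq2 called 1, 0 and 1 members there (5.8%, 0.321% and 6.17% of genes), and limma-voom none (2.01%, 0.00707% and 2.43%). The 6 calls in pool 3 fell to 2 when any 1 library of pools 1, 2 or 4 was left out, to 0 without pool 3 replicate 1 and to 1 without pool 3 replicate 2, and were 4 and 5 without scramble replicates 2 and 3. Without scramble replicate 1, 3 members were called in pool 2 (1 higher, 2 lower), where 4.39% of 14062 genes were (1.71% higher, 2.69% lower). Pool 3 had 23 (6 higher, 17 lower), where 48.8% of genes were called (22.7% higher, 26.1% lower). Pool 1 had 21 (6 higher, 15 lower), where 28.8% were (11.8% higher, 17.0% lower), and pool 4 had 22 (7 higher, 15 lower), where 31.0% were (13.2% higher, 17.8% lower). The 4 comparisons share the scramble libraries. Without scramble replicate 1, 15 members were called lower in each of pools 1, 3 and 4, where 14.4% of genes were, and 4 were called higher in each (Bmp6, Acvr2b, Smad3 and Smad4), where 8.37% were. Tgfbr1 and Tgfbr3 were called lower in all 4 pools, where 1.32% of genes were, and no member was called higher in all 4, where 0.469% were.

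**Figure D3:**
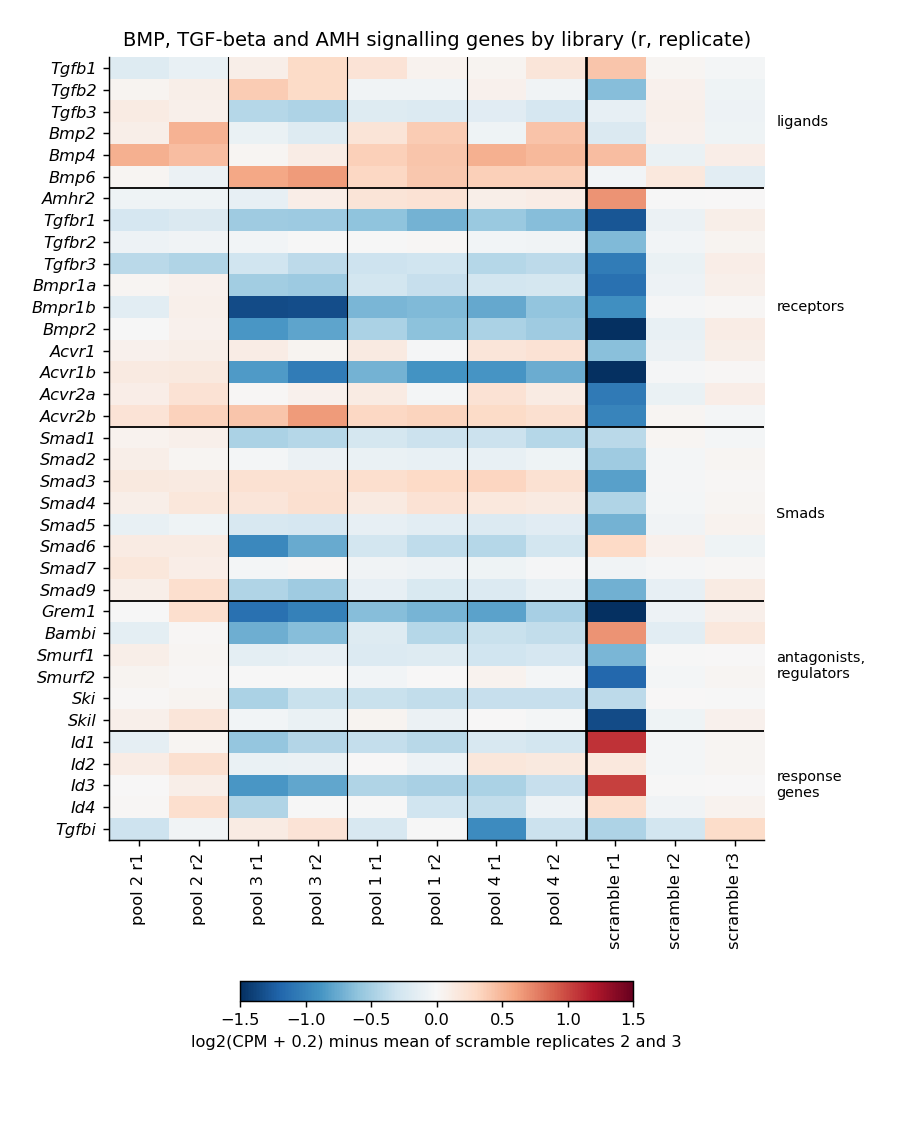
log2(CPM + 0.2) of 36 members (rows, by role; Amh and Bmp7, under 1 CPM throughout, are left out) in each library (columns, r for replicate), minus the mean of scramble replicates 2 and 3. The pool 3, 1 and 4 columns are lower in most receptor, antagonist and Id rows. In many of these rows the pool 2 columns are closer to 0, but not in every row. Bmp4 averaged 10.8 CPM in pool 2 against 7.62 CPM in scramble replicates 2 and 3, and Tgfbr3 12.4 against 16.8 CPM. Scramble replicate 1 differs from both other scramble libraries.

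The pools also differed from one another, and many receptors, Smads, antagonists and Id genes were highest in pool 2 and lowest in pool 3. This was tested in the 8 pool libraries alone, so that scramble played no part. A difference among the 4 pools was called for 27 of 37 members (73.0%), where 48.6% of 14056 genes were called. Pool 2 minus the mean of the other 3 pools gave 21 members called higher and 4 called lower, where 47.6% of genes were called, 25.3% higher and 22.3% lower. Pool 3 minus the mean of the others gave 4 higher and 18 lower, where 44.5% of genes were called, 20.4% higher and 24.1% lower. Pools 1 and 4 gave 3 calls each (2.99% and 2.37% of genes). These 4 contrasts use the same 8 libraries and are not independent of each other. The mean set against pool 3 includes pool 2, so a gene high in pool 2 alone also moves towards lower in pool 3. Likewise, a gene low in pool 3 alone moves towards higher in pool 2. Acvr1b averaged 7.4 CPM in pool 3, 8.2 CPM in pool 1 and 8.1 CPM in pool 4, against 15.9 CPM in pool 2. Both pool 3 libraries lay below the 6 others in 14 members (37.8%, against 20.9% of genes) and above them in 4 (10.8%, against 20.1%). The 3 calls of pool 1 were 0 without pool 1 replicate 2 and 5 without pool 2 replicate 1, and the 3 calls of pool 4 were 1, 0 and 1 without pool 3 replicate 2, pool 4 replicate 1 and pool 4 replicate 2. In 17 of 37 members (45.9%) pool 2 had the highest mean and pool 3 the lowest, as in 26.5% of genes, and in 3 members (8.11%) the order was the reverse, as in 27.5% of genes. Both pool 2 libraries lay above the 6 others in 20 members (54.1%, against 24.7% of genes) and below them in 3 (8.11%, against 22.3%). A fit over all 11 libraries has an estimate of spread that includes scramble replicate 1. In it 1 member was called among the 4 pools, 3 in pool 2 and 1 in pool 3. Without that library 27, 24 and 22 were called. The shares of all genes called in these fits are not given here, so the counts cannot be set against them.

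**Figure D4:**
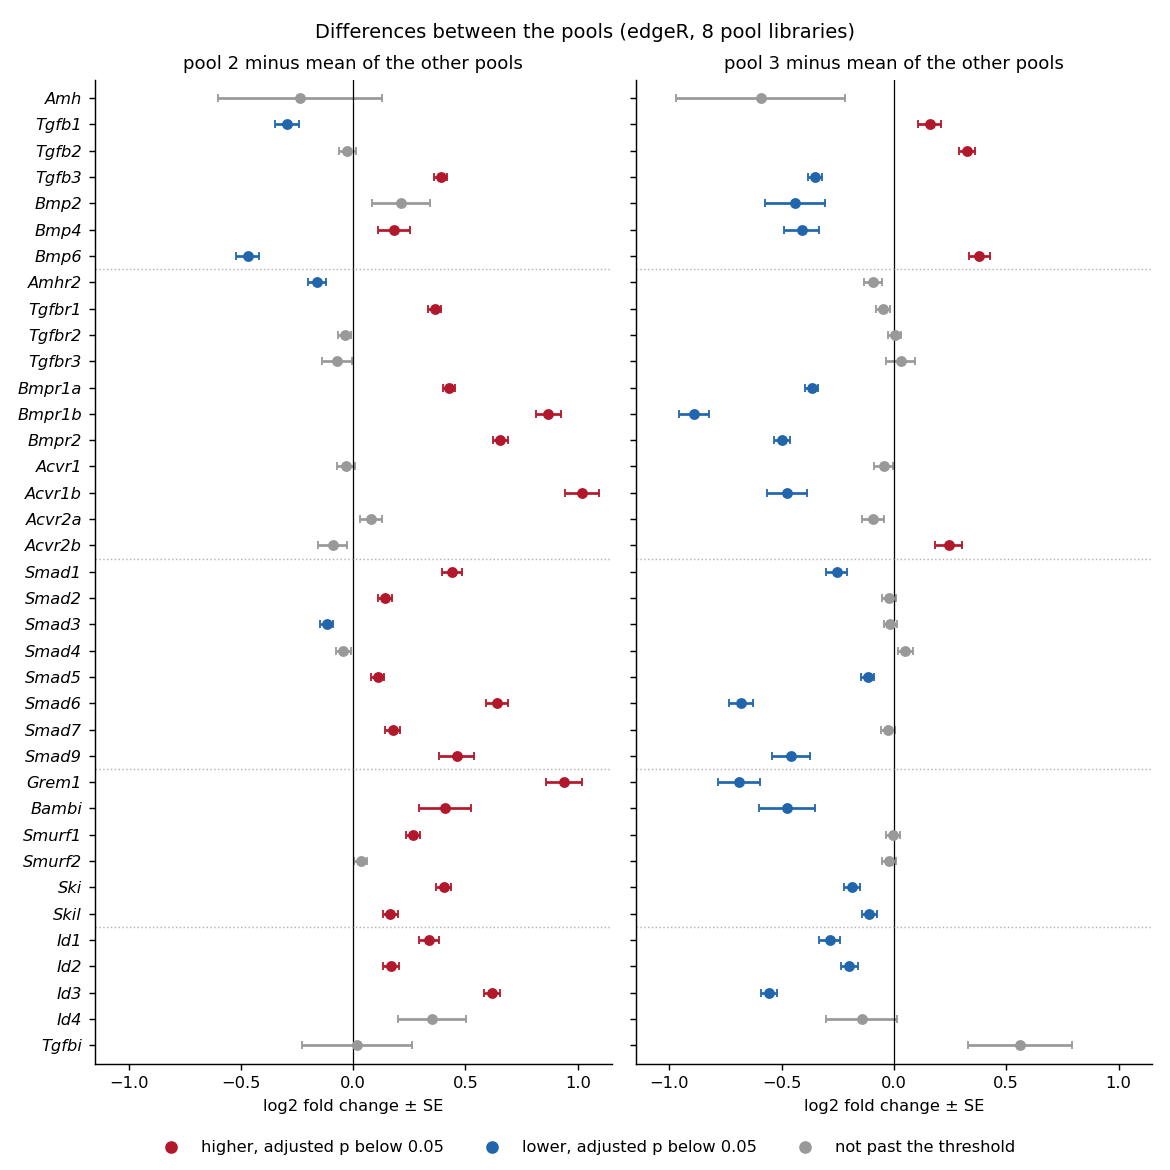
log2 fold change ± SE of pool 2 minus the mean of the other pools (left) and of pool 3 minus the mean of the other pools (right) for the 37 members tested, by role, from the 8 pool libraries. Acvr1b, Grem1 and Bmpr1b have the largest values on the left (1.02 ± 0.08, 0.94 ± 0.08 and 0.87 ± 0.06), and most of the genes that are higher on the left are lower on the right. The 2 sides are not independent, as the mean on the right includes pool 2.

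The TGF-beta ligand transcripts did not move as one. Tgfb3, the most abundant ligand per length, had 127 and 123 CPM with pool 2, 86.7 and 84.5 CPM with pool 3, 102 and 101 CPM with pool 1, and 104 and 98.2 CPM with pool 4, against 107, 123 and 111 CPM with scramble. Pool 2 lay above the other pools and pool 3 below them, with no overlap. The log2 difference was 0.39 ± 0.03 (SE) for pool 2 minus the other pools (adjusted p = 5.8e-10) and -0.35 ± 0.03 for pool 3 (adjusted p = 1.13e-08). Against scramble, pool 3 differed by -0.41 ± 0.09 with all libraries (adjusted p = 0.0242), a call that was lost without any 1 library of the pools or without scramble replicate 2, with values from -0.43 to -0.35. Tgfb2 was high in pool 3 alone, with 57.3 and 59.0 CPM with pool 2, 72.5 and 68.1 CPM with pool 3, 53.4 and 53.5 CPM with pool 1, and 58.0 and 53.4 CPM with pool 4, against 35.8, 58.3 and 53.0 CPM with scramble. Both pool 3 libraries lay above every other library, and pool 3 minus the other pools was 0.33 ± 0.04 (adjusted p = 4.09e-07). A lower level in pool 1 (-0.19 ± 0.04, adjusted p = 0.00747) missed the threshold without either pool 1 library, at -0.19 in both cases. Tgfb1 had 42.2 and 44.5 CPM with pool 2, 51.3 and 58.7 CPM with pool 3, 55.4 and 49.8 CPM with pool 1, and 49.5 and 54.5 CPM with pool 4, against 64.4, 49.0 and 47.3 CPM with scramble. It was lower in pool 2 than in the other pools, with a log2 difference of -0.29 ± 0.05 (adjusted p = 9.99e-05). Its difference in pool 3, 0.16 ± 0.05, was 0.06 without pool 3 replicate 2, and not called, and 0.25 without pool 3 replicate 1.

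The BMP ligands of the set (Bmp2, Bmp4, Bmp6 and Bmp7) were low next to Tgfb3, and Bmp6 went against most of the family. Gdf6, a further ligand of the pathway that is not in the set, had 121 to 147 CPM over all libraries. Bmp6, which oocytes and granulosa cells make, had 21.9 and 20.2 CPM with pool 2, 32.2 and 33.6 CPM with pool 3, 26.6 and 28.4 CPM with pool 1, and 27.6 and 27.4 CPM with pool 4, against 20.9, 24.0 and 19.1 CPM with scramble. Pool 3 was highest and pool 2 lay within the scramble range, with the pool 1 and 4 libraries between them. Pool 3 minus scramble was 0.62 ± 0.11 (adjusted p = 0.0106), pool 3 minus the other pools 0.38 ± 0.05 (adjusted p = 1.31e-06) and pool 2 minus the other pools -0.47 ± 0.05 (adjusted p = 1.51e-07). The call against scramble was lost without either pool 3 library, at 0.65 without replicate 1 and 0.59 without replicate 2. Reads of Bmp6 and of Txndc5, on the opposite strand, overlap in exons, and the sources used here do not give the strand setting of the counting. Bmp4, a theca ligand in rodents whose exons overlap Gm15217, had 11.1 and 10.6 CPM with pool 2, 7.74 and 8.22 CPM with pool 3, 9.81 and 10.2 CPM with pool 1, and 11.1 and 10.7 CPM with pool 4, against 10.6, 7.07 and 8.18 CPM with scramble. It was lowest in pool 3 among the pools (-0.41 ± 0.08, adjusted p = 0.000177), and its call in pool 2 (0.18 ± 0.07, adjusted p = 0.0467) was lost without most single libraries, at 0.15 to 0.21, and with DESeq2. Bmp2, also a granulosa ligand, had 5.26 and 7.14 CPM with pool 2, 4.59 and 4.31 CPM with pool 3, 5.66 and 6.48 CPM with pool 1, and 4.69 and 6.70 CPM with pool 4, against 4.21, 5.17 and 4.71 CPM with scramble, and was lower in pool 3 than in the other pools, at -0.44 ± 0.14 (adjusted p = 0.0117), a call lost without either pool 3 library (-0.48 without replicate 1 and -0.39 without replicate 2).

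The BMP receptors Bmpr1a, Bmpr1b and Bmpr2 were higher in pool 2 than in the pools that hold siRNA 7, and lower in pool 3 than in the other pools. Bmpr1b, a BMP type I receptor with a known role in ovulation rate in sheep, had 37.3 and 43.8 CPM with pool 2, 16.3 and 16.4 CPM with pool 3, 25.8 and 26.2 CPM with pool 1, and 24.3 and 27.5 CPM with pool 4, against 21.9, 41.3 and 42.0 CPM with scramble. Both pool 3 libraries were the lowest of all, pools 1 and 4 came next among the pools, and pool 2 overlapped the range of scramble replicates 2 and 3. Pool 2 minus the other pools was 0.87 ± 0.06 (adjusted p = 4e-11) and pool 3 minus the others -0.89 ± 0.07 (adjusted p = 6.54e-10). Against all scramble libraries pool 3 was lower, at -1.10 ± 0.26 on the log2 scale (adjusted p = 0.032), a call lost without any single library other than scramble replicate 1, at -1.11 to -0.95. Bmpr2, the type II receptor for BMPs and the longest gene of the set at 17983 exon bases, had 553 and 581 CPM with pool 2, 304 and 322 CPM with pool 3, 399.7 and 363 CPM with pool 1, and 402 and 386 CPM with pool 4, against 176, 515 and 602 CPM with scramble. Pool 2 lay above the other pools and pool 3 below them, and scramble replicate 1 was lowest of the 11 libraries. The differences were 0.66 ± 0.03 for pool 2 and -0.50 ± 0.03 for pool 3 (adjusted p = 4.23e-13 and 2.81e-10). Bmpr1a, the other BMP type I receptor and one that AMH also uses, had 316 and 324 CPM with pool 2, 216 and 211 CPM with pool 3, 255 and 242 CPM with pool 1, and 256 and 257 CPM with pool 4, against 142, 293 and 326 CPM with scramble. The order of the pools was the same, with 0.43 ± 0.03 for pool 2 and -0.37 ± 0.03 for pool 3 (adjusted p = 2.01e-11 and 1.1e-09).

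**Figure D5:**
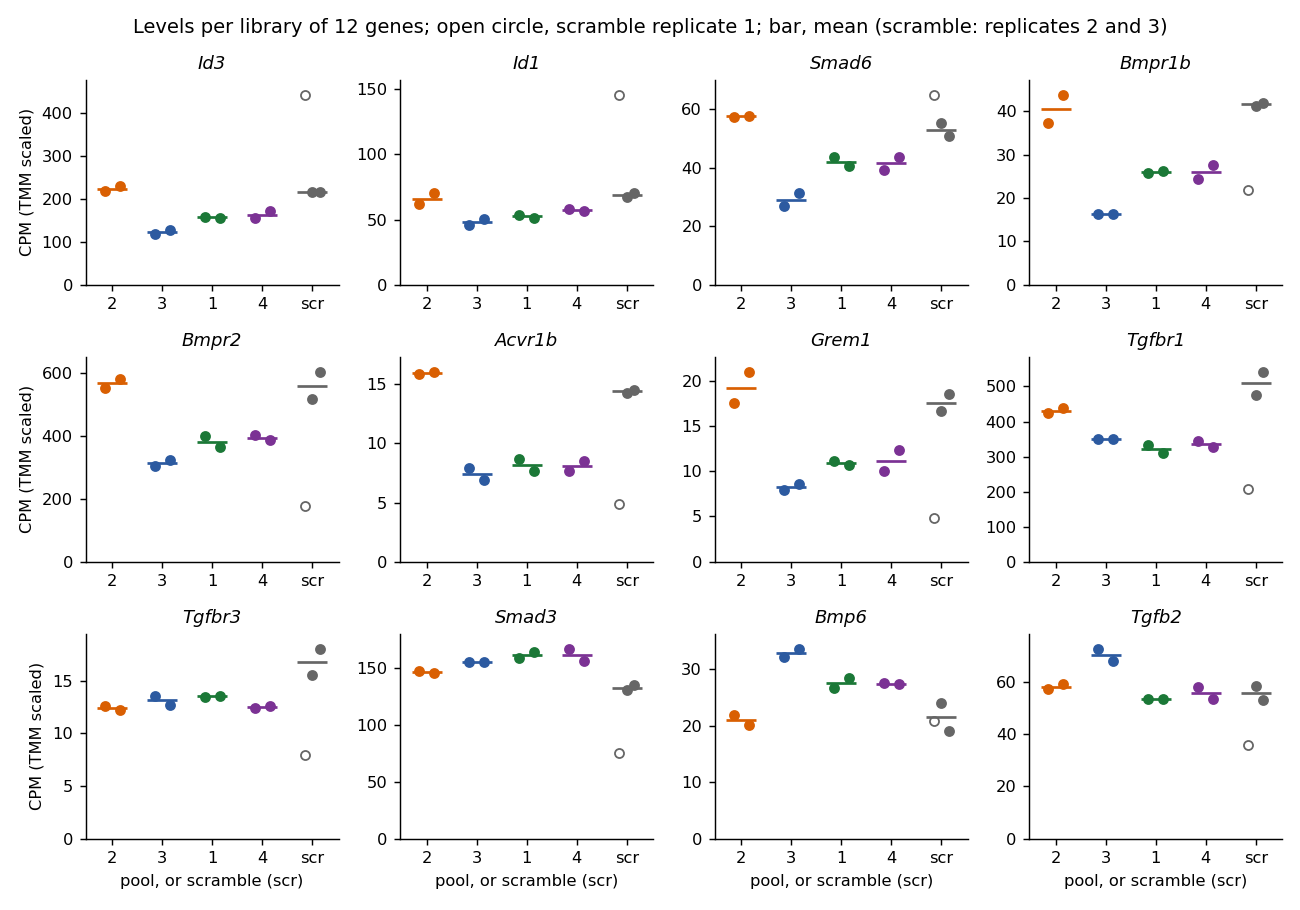
CPM of 12 members in each library: pools 2, 3, 1 and 4, then scramble (scr), whose replicate 1 is an open circle. Bars are means, for scramble of replicates 2 and 3. In Id3, Smad6, Bmpr1b, Bmpr2, Acvr1b and Grem1 both pool 2 libraries lie above the other pools, and in Bmp6 both lie below them.

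Of the receptors Acvr1b, Acvr2b, Amhr2, Acvr1 and Acvr2a, Acvr1b alone was called both higher in pool 2 and lower in pool 3, like Bmpr1a, Bmpr1b and Bmpr2. Acvr1b, the activin type I receptor, had 15.8 and 16.0 CPM with pool 2, 7.92 and 6.87 CPM with pool 3, 8.70 and 7.64 CPM with pool 1, and 7.68 and 8.55 CPM with pool 4, against 4.85, 14.3 and 14.5 CPM with scramble. Pool 2 stood above all other libraries and the 6 libraries of pools 1, 3 and 4 overlapped one another. Pool 2 minus the others was 1.02 ± 0.08, a 2.03-fold level (adjusted p = 3.58e-10), and pool 3 minus the others -0.48 ± 0.09 (adjusted p = 0.000134). Acvr2b, a type II receptor for activins, had 16.6 and 18.3 CPM with pool 2, 19.2 and 22.4 CPM with pool 3, 17.8 and 18.2 CPM with pool 1, and 17.5 and 16.9 CPM with pool 4, against 7.12, 14.7 and 14.1 CPM with scramble. All 8 pool libraries lay above all scramble libraries, with a log2 difference of 0.63 ± 0.19 with all libraries (adjusted p = 0.108) and 0.35 ± 0.10 without scramble replicate 1 (adjusted p = 0.133), neither past the threshold, though without scramble replicate 3 it was 0.76 and passed. Its call in pool 3 against the other pools (0.24 ± 0.06, adjusted p = 0.00325) rested on pool 3 replicate 2 and was 0.13 without it. Amhr2, the receptor that only AMH uses, had 82.2 and 82.5 CPM with pool 2, 79.1 and 92.0 CPM with pool 3, 98.3 and 99.9 CPM with pool 1, and 91.7 and 92.9 CPM with pool 4, against 138, 85.8 and 86.5 CPM with scramble. Pool 2 was lower than the other pools, at -0.16 ± 0.04 (adjusted p = 0.00253). Pool 1 was higher than the others by 0.20 ± 0.04 (adjusted p = 0.00607), which missed the threshold without either pool 1 library (0.20 without replicate 1 and 0.18 without replicate 2). Acvr1, a type I receptor for BMPs and AMH, had 54.4 and 55.5 CPM with pool 2, 56.2 and 53.7 CPM with pool 3, 57.2 and 51.6 CPM with pool 1, and 58.9 and 60.8 CPM with pool 4, against 33.6, 49.2 and 55.2 CPM with scramble. Acvr2a, an activin type II receptor whose exons overlap Orc4, had 34.2 and 37.0 CPM with pool 2, 32.3 and 33.2 CPM with pool 3, 34.5 and 31.1 CPM with pool 1, and 37.0 and 34.6 CPM with pool 4, against 15.2, 29.6 and 34.2 CPM with scramble. In both, scramble replicate 1 was lowest, and the pools overlapped with scramble replicates 2 and 3. Neither differed among the pools past the threshold (adjusted p = 0.0682 and 0.11). Without scramble replicate 1, Acvr1 was called higher in pool 4 (adjusted p = 0.0163).

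The TGF-beta receptors Tgfbr1 and Tgfbr3 were the members called lower in all 4 pools once scramble replicate 1 was left out. Tgfbr1, the TGF-beta type I receptor, had 425 and 438 CPM with pool 2, 352 and 349 CPM with pool 3, 334 and 311 CPM with pool 1, and 345 and 327 CPM with pool 4, against 208, 476 and 541 CPM with scramble. All 8 pool libraries lay below scramble replicates 2 and 3 and above replicate 1. Against replicates 2 and 3 the log2 differences for pools 2, 3, 1 and 4, in this order, were -0.24 ± 0.05, -0.55 ± 0.05, -0.66 ± 0.05 and -0.60 ± 0.05 (adjusted p = 0.00742, 2.26e-08, 4.06e-09 and 1.56e-08). With all libraries they were 0.08 ± 0.32, -0.22 ± 0.33, -0.34 ± 0.33 and -0.28 ± 0.33, none past the threshold, and the sign in pool 2 was the opposite. Between the pools, Tgfbr1 was higher in pool 2 (0.36 ± 0.03, adjusted p = 1.3e-09) and lower in pool 1 (-0.20 ± 0.03, adjusted p = 0.000494; -0.14 and not called without pool 1 replicate 2). A call in pool 4 (-0.12 ± 0.03, adjusted p = 0.0402) was lost without any of 6 single libraries, at -0.16 to -0.08. Tgfbr3, or betaglycan, a coreceptor for TGF-beta and inhibin, had 12.6 and 12.2 CPM with pool 2, 13.6 and 12.7 CPM with pool 3, 13.4 and 13.6 CPM with pool 1, and 12.4 and 12.6 CPM with pool 4, against 7.95, 15.5 and 18.0 CPM with scramble. The 8 pool libraries lay close together, below scramble replicates 2 and 3 and above replicate 1. All pools minus scramble replicates 2 and 3 was -0.38 ± 0.07 (adjusted p = 0.0472). With all libraries it was -0.10 ± 0.18 (adjusted p = 0.717), and without scramble replicate 3 it was 0.14. Tgfbr2, the TGF-beta type II receptor, had 166 to 178 CPM in the pools and 111, 171 and 181 CPM with scramble and was not called in any comparison (adjusted p = 0.312 among the pools).

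Smad1, Smad5 and Smad9, of the BMP and AMH branch, were each called higher in pool 2 and lower in pool 3 than the mean of the other pools. Of the TGF-beta branch, Smad2 was called higher in pool 2 and Smad3 lower. Smad1 had 41.5 and 42.2 CPM with pool 2, 28.7 and 29.8 CPM with pool 3, 33.3 and 31.9 CPM with pool 1, and 31.9 and 29.8 CPM with pool 4, against 30.3, 40.9 and 39.3 CPM with scramble. Pool 2 lay above the other pools by 0.44 ± 0.04 (adjusted p = 2.62e-08) and the pool 3 mean lay below, at -0.26 ± 0.05 (adjusted p = 0.000102). That mean of the other pools includes pool 2, and pools 3 and 4 met at 29.8 CPM. Smad9, less abundant, had 11.5 and 12.9 CPM with pool 2, 7.88 and 7.39 CPM with pool 3, 9.90 and 9.20 CPM with pool 1, and 9.35 and 10.0 CPM with pool 4, against 6.51, 9.95 and 11.8 CPM with scramble. Its differences were 0.46 ± 0.08 for pool 2 and -0.46 ± 0.08 for pool 3 (adjusted p = 3.78e-05 and 0.000124), with no overlap of either pool with the other pools. Smad5 had 108 and 110.4 CPM with pool 2, 97.8 and 97.2 CPM with pool 3, 106 and 104 CPM with pool 1, and 100.1 and 103 CPM with pool 4, against 70.9, 111 and 121 CPM with scramble. The changes were smaller, 0.11 ± 0.03 for pool 2 and -0.12 ± 0.03 for pool 3 (adjusted p = 0.00434 and 0.00304), and the first missed the threshold without pool 2 replicate 2 (0.08).

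Smad3, which carries TGF-beta and activin signals, had 147 and 145 CPM with pool 2, 155 and 155 CPM with pool 3, 158 and 164 CPM with pool 1, and 166 and 156 CPM with pool 4, against 75.5, 130.4 and 135 CPM with scramble. All 8 pool libraries lay above all 3 scramble libraries. The log2 difference was 0.46 ± 0.14 with all libraries (adjusted p = 0.11), 0.23 ± 0.05 without scramble replicate 1 (adjusted p = 0.0994) and 0.60 without scramble replicate 3, of which the last alone passed the threshold. Among the pools it was lowest in pool 2 (-0.12 ± 0.03, adjusted p = 0.00281). Smad4, the shared partner, had 105 and 112 CPM with pool 2, 112 and 117 CPM with pool 3, 109 and 115 CPM with pool 1, and 111 and 109 CPM with pool 4, against 72.3, 97.2 and 101 CPM with scramble. It too lay higher in every pool library than in every scramble library, by 0.30 ± 0.10 with all libraries (adjusted p = 0.11), 0.16 ± 0.05 without scramble replicate 1 (adjusted p = 0.13) and 0.39 without scramble replicate 3, the last alone past the threshold. No difference among the pools was called for it (adjusted p = 0.406). Smad2, the other TGF-beta Smad, had 114 and 109.6 CPM with pool 2, 106 and 101 CPM with pool 3, 100.5 and 99.9 CPM with pool 1, and 99.9 and 103 CPM with pool 4, against 74.2, 106 and 109.6 CPM with scramble, and was higher in pool 2 by 0.14 ± 0.03 (adjusted p = 0.000554).

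Of the inhibitory Smads, Smad6, which acts mainly on BMP receptors and is itself a BMP target, changed most. It had 57.6 and 57.6 CPM with pool 2, 26.9 and 31.2 CPM with pool 3, 43.7 and 40.5 CPM with pool 1, and 39.3 and 43.7 CPM with pool 4, against 65.0, 55.2 and 50.8 CPM with scramble. Both pool 3 libraries were lowest, pools 1 and 4 overlapped one another, and both pool 2 libraries lay between the highest scramble value and the other 2. Pool 3 minus scramble was -0.97 ± 0.13 (adjusted p = 0.00324; -0.87 and not called without pool 3 replicate 1), pool 2 minus the other pools 0.64 ± 0.05 (adjusted p = 5.74e-10) and pool 3 minus the others -0.68 ± 0.05 (adjusted p = 2.04e-09). Smad7, which inhibits both branches, had 81.5 and 78.1 CPM with pool 2, 71.0 and 73.5 CPM with pool 3, 70.1 and 69.2 CPM with pool 1, and 69.6 and 71.7 CPM with pool 4, against 70.3, 71.9 and 73.4 CPM with scramble. Pool 2 lay above the other pools by 0.18 ± 0.03 (adjusted p = 0.000114) and above the scramble libraries, from which its difference was not called.

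Among antagonists and regulators, 5 of 6 were called higher in pool 2 than in the other pools (25.3% of genes), and 4 were called lower in pool 3 (24.1%). Grem1 had 17.5 and 20.9 CPM with pool 2, 7.95 and 8.58 CPM with pool 3, 11.1 and 10.7 CPM with pool 1, and 9.97 and 12.3 CPM with pool 4, against 4.79, 16.6 and 18.5 CPM with scramble. The lower pool 2 value lay between those of scramble replicates 2 and 3, and the higher one lay above both. Both pool 3 libraries lay below those of pools 1 and 4, with scramble replicate 1 lowest. Pool 2 minus the others was 0.94 ± 0.08, a 1.92-fold level (adjusted p = 2.9e-09), and pool 3 minus the others -0.69 ± 0.09 (adjusted p = 3.04e-06). Bambi, a receptor without a kinase domain that blocks signalling, had 4.29 and 4.85 CPM with pool 2, 2.79 and 2.99 CPM with pool 3, 4.14 and 3.49 CPM with pool 1, and 3.76 and 3.66 CPM with pool 4, against 7.77, 4.25 and 5.36 CPM with scramble. Pool 3 was lowest and scramble replicate 1 highest, and pool 3 minus scramble was -1.0 ± 0.24 (adjusted p = 0.0354), a call that was lost without any 1 pool library, at -1.05 to -0.96. Against the other pools, pool 2 differed by 0.41 ± 0.12 and pool 3 by -0.48 ± 0.12 (adjusted p = 0.00579 and 0.00376), calls lost without pool 2 replicate 2 (0.31) and pool 3 replicate 1 (-0.43). The call in pool 2 was also lost with DESeq2.

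Ski and Skil encode corepressors of Smad complexes. Ski had 111 and 113 CPM with pool 2, 78.8 and 87.2 CPM with pool 3, 87.3 and 84.6 CPM with pool 1, and 86.4 and 86.2 CPM with pool 4, against 83.7, 109.8 and 109.6 CPM with scramble. Pool 2 lay just above scramble replicates 2 and 3 and above the other pools by 0.40 ± 0.03 (adjusted p = 2.17e-09), and the pool 3 mean was lower than that of the other pools, at -0.19 ± 0.04 (adjusted p = 0.00019), or -0.12 without pool 3 replicate 1. Skil, with 9694 exon bases, had 213 and 229 CPM with pool 2, 196 and 189 CPM with pool 3, 208 and 190.2 CPM with pool 1, and 203 and 198 CPM with pool 4, against 79.7, 194 and 211 CPM with scramble. Its differences were 0.17 ± 0.03 for pool 2 (0.11 without pool 2 replicate 2) and -0.11 ± 0.03 for pool 3 (adjusted p = 0.000403 and 0.0147), the second lost without pool 1 replicate 1 (-0.08) or pool 3 replicate 2 (-0.07). Smurf1, a ubiquitin ligase for BMP Smads and receptors, had 103 and 98.3 CPM with pool 2, 87.1 and 88.7 CPM with pool 3, 83.6 and 84.6 CPM with pool 1, and 78.6 and 81.0 CPM with pool 4, against 59.9, 96.3 and 96.9 CPM with scramble. It was higher in pool 2 by 0.27 ± 0.03 (adjusted p = 2.24e-07) and lower in pool 4, at -0.18 ± 0.03 (adjusted p = 0.00159; -0.16 and not called without pool 4 replicate 1). Smurf2, its paralog, had 97.9 to 104 CPM in the pools and 44.4, 98.5 and 103 CPM with scramble, and was not called in any comparison (adjusted p = 0.69 among the pools).

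The Id genes, which encode helix-loop-helix proteins that block DNA binding of partner factors, moved in the same direction between the pools: Id1, Id2 and Id3 were each called higher in pool 2 and lower in pool 3 than in the other pools. Id3 had 219 and 230.3 CPM with pool 2, 118 and 127 CPM with pool 3, 159 and 156 CPM with pool 1, and 156 and 171 CPM with pool 4, against 443, 217 and 217 CPM with scramble. Pool 2 lay just above scramble replicates 2 and 3, pools 1 and 4 lay lower and pool 3 lowest, while scramble replicate 1 was the highest library. Pool 2 minus the other pools was 0.62 ± 0.03 (adjusted p = 2.44e-12) and pool 3 minus the others -0.56 ± 0.04 (adjusted p = 1.24e-10). Pool 3 minus scramble was -1.25 ± 0.30 (adjusted p = 0.0324), a call that was lost without any 1 pool library, at -1.30 to -1.21. Without scramble replicate 1 Id3 was called lower in pools 1, 3 and 4 and not in pool 2 (adjusted p = 0.705). Id1 had 62.2 and 70.0 CPM with pool 2, 45.8 and 50.3 CPM with pool 3, 53.6 and 51.5 CPM with pool 1, and 58.0 and 56.5 CPM with pool 4, against 146, 67.1 and 70.0 CPM with scramble. The pools kept the same order, with 0.34 ± 0.04 for pool 2 and -0.29 ± 0.05 for pool 3 (adjusted p = 1.69e-06 and 3.17e-05). Scramble replicate 1 was above every other library, and Id1 is the shortest gene of the set at 1160 exon bases. Id2 had 85.1 and 93.5 CPM with pool 2, 73.8 and 74.5 CPM with pool 3, 79.5 and 74.7 CPM with pool 1, and 89.2 and 87.2 CPM with pool 4, against 88.5, 77.5 and 80.5 CPM with scramble. It was lower in pool 3, at -0.20 ± 0.04 (adjusted p = 0.00017) and higher in pool 2 by 0.17 ± 0.04 (adjusted p = 0.000569; 0.10 and not called without pool 2 replicate 2). Its call in pool 4 (0.14 ± 0.04, adjusted p = 0.0409) was lost without any of 6 single libraries, at 0.12 to 0.16, and with DESeq2. Id4, whose exons overlap A330033J07Rik, had 2.08 to 3.52 CPM in the pools and 3.50, 2.81 and 3.03 CPM with scramble, and Tgfbi, an extracellular matrix protein named for its induction by TGF-beta, had 0.427 to 1.19 CPM in the pools and 0.676, 0.798 and 1.25 CPM with scramble. Neither was called in any comparison (adjusted p = 0.255 and 0.102 among the pools).

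A wider list of 76 other genes of the pathway, of which 59 passed the filter, showed no common direction. Pool 2 minus the other pools gave 16 called higher and 19 lower, where 25.3% and 22.3% of all genes were, and pool 3 minus the others 14 higher and 15 lower, where 20.4% and 24.1% were. All pools minus scramble gave 0 called with all libraries and 0 without scramble replicate 1. With the pools fitted as separate groups, their mean gave 6 called (6.37% of genes) and 26 without scramble replicate 1 (35.8%). Without that library, 3, 33, 21 and 24 of the 59 were called against scramble in pools 2, 3, 1 and 4, in this order. The shares of all genes called there were 4.39%, 48.8%, 28.8% and 31.0%. Of 14 secreted antagonists and carriers tested, 5 were higher in pool 2 and 4 lower, against the same 25.3% and 22.3% of genes as for the lists that follow. Among other ligands, Bmp3, which opposes BMP signals, was higher in pool 2 by 1.27 ± 0.15 and Gdf15, a stress-induced member of the family, was lower, at -1.16 ± 0.13 (adjusted p = 3.65e-07 and 1.82e-07).

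Known TGF-beta targets split in direction. The smooth muscle genes Tgfb1i1, Acta2 and Tagln were higher in pool 2 than in the other pools, by 1.28 ± 0.03, 0.94 ± 0.03 and 0.64 ± 0.03 (adjusted p = 1.79e-17, 8.3e-16 and 4.46e-13). Acta2, smooth muscle actin, had 1938 and 1844 CPM with pool 2, 868 and 813 CPM with pool 3, 1039 and 1104 CPM with pool 1, and 1028 and 1101 CPM with pool 4, against 3040.0, 2008 and 1631 CPM with scramble. Acta2 and Tagln are also on the smooth muscle marker list above. Of the 9 targets on the list 3 were higher and 4 lower in pool 2. Of 6 further BMP targets tested, 2 were higher in pool 2, Runx2 by 0.59 ± 0.03 and Gata2 by 0.23 ± 0.07 (adjusted p = 3.84e-12 and 0.00767), and 0 were lower.

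The pools were also set against scramble by the submitters: of the 38 members, 30 have in the authors' deposited table an adjusted p, and 3 of them are under 0.05, where 9.72% of 10136 genes are. The authors' deposited table gives Id3 a log2 fold change of -0.63 (adjusted p = 0.0307), Bambi -0.53 (adjusted p = 0.0394) and Smad4 0.29 (adjusted p = 0.0389). It gives Id1 -0.62, Smad3 0.42 and Acvr2b 0.54 with no p-value. In edgeR without scramble replicate 1, all pools minus scramble was -0.38 for Id3, -0.36 for Bambi and 0.16 for Smad4. None of these was called (adjusted p = 0.30, 0.28 and 0.13).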

How the data were processed

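Messenger RNA was measured in 11 libraries, 8 from 4 pools of Akt1 siRNAs and 3 with scramble, made with a stranded kit from total RNA (1.3 µg) and read as single 75-base reads, per the labels. The submitters' processing notes list the build mm10 and, here in alphabetical order, bcl2fastq 2.15.0, cutadapt 1.9.1, DESeq2, FastQC 0.11.5, featureCounts 1.5.0-p2 and TopHat2. The sources used here do not give their settings, order or strand option. The deposited files hold whole-number counts by gene symbol, as the authors' counting left them. A further table by the authors sets the pools against scramble, and per its file header it gives p-values, log2 fold changes, a Wald score and a base mean, which is a signal averaged over the libraries after normalization.

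ERCC spike-in lines (92 of 24582, 0.268% to 0.788% of counts) were kept out. edgeR 4.0.16 (R 4.3.3) was run on the counts (TMM, filterByExpr, quasi-likelihood F test, two-sided), with Benjamini-Hochberg adjustment over all genes tested, a threshold of 0.05 and no minimum fold. An SE is the log2 fold change divided by the root of F. All pools minus scramble used 2 groups and 11 libraries, each pool minus scramble 5 groups and 11 libraries, and contrasts between pools the 8 pool libraries. The script was tested on simulated counts. Members, lists and tests were chosen with earlier results of these data known. By the rule for named genes, every member is named, members called in any comparison get their values per library, as do Amh, Amhr2 and the member of each role with the highest mean CPM, and at most 3 called genes of each wider list are named by size of change; values of genes called nowhere are given as ranges. Exon lengths are from the GENCODE annotation of GRCm38 and matched 23667 of 24490 genes. TPM was computed from counts and these lengths, and plots use log2(CPM + 0.2). Replicate numbers did not pair the libraries.

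Alternatives were RLE scaling, limma-voom (limma 3.58.1), DESeq2 1.42.0, no low-count filter, a CPM over 1 in every library, a replicate block, other sets of libraries, and each library left out in turn. The fits that join the mean of the pools with 5 groups, or leave out pool 2, with scramble replicate 1 also removed were added after seeing the data. Depth was 23851293 to 32643158 reads in genes, so members near 1 CPM rest on few reads. Reads shared by paralogs or overlapping genes cannot be separated.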

Additional observations from a re-analysis of the deposited data

Results flagged for a closer look

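Of the 38 members examined, 1 had a library far from the rest of its group. In the 8 pool libraries Acvr2b ranged from 16.6 to 22.4 CPM, and the gap of the highest, pool 3 replicate 2, to its nearest neighbour was 0.549 of the range, above Dixon's critical value of 0.526. Chance alone flags about 1 in 20 groups. The 8 libraries come from 4 pools, and the other pool 3 library was the second highest.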

How the results depend on the processing

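Counts of called members moved less than 1.5 times under RLE scaling, CPM above 1 in all libraries and limma-voom. For all pools minus scramble (0 called), 6 were called with DESeq2, 6 with a replicate block, 5 without both pool 2 libraries, 2 when the pools were fitted as separate groups and averaged, 21 with that average and no scramble replicate 1, and 20 without scramble replicate 1 and both pool 2 libraries. DESeq2 called 1 in pool 1 and 1 in pool 4 against scramble. Pool 3 minus scramble (6) gave 3 with a replicate block and 2 without both pool 2 libraries. Against the other pools, no low-count filter gave 7 in pool 1 and 5 in pool 4. The 11-library fit gave 0 in pool 1, 3 in pool 2, 1 in pool 3, 0 in pool 4 and 1 for any difference, and without scramble replicate 1 pool 4 gave 1. With one library left out, calls ranged from 0 to 7 for all pools minus scramble, and against scramble from 0 to 21, 0 to 3, 0 to 23 and 0 to 22 in pools 1 to 4. Between pools they ranged from 24 to 29 for any difference, and from 0 to 5, 21 to 26, 19 to 23 and 0 to 3 in pools 1 to 4. The cause of these shifts was not tested. For most of these fits the share of all genes called is not given here. A shift in the members then cannot be told apart from one in all genes.

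Signs turned for Tgfbr1 and Tgfbr3 against scramble. With a replicate block, Tgfbr1 was 0.12 over all pools, 0.075 for pool 3 and 0.017 for pool 4. Tgfbr3 was then 0.16 over all pools and 0.23, 0.10, 0.19 and 0.12 for pools 1 to 4. With limma-voom Tgfbr3 was 0.0038 over all pools, 0.066 for pool 1 and 0.026 for pool 3. With one library left out, Tgfbr1 ranged from -0.50 to 0.074 over all pools, from -0.24 to 0.33 for pool 2 and from -0.55 to 0.035 for pool 3. Tgfbr3 ranged from -0.38 to 0.14 over all pools, and for pools 1 to 4 from -0.31 to 0.20, -0.44 to 0.079, -0.36 to 0.17 and -0.42 to 0.095. Same-numbered libraries deviated with r from -0.07 to 0.10 over 10 pairs of groups, so the block rests on shared numbers alone. Members under 10 CPM carry more counting error. With 1 library left out, the counts of each pool against scramble moved most without scramble replicate 1. That of all pools minus scramble moved most without scramble replicate 3. Each pool has 2 libraries, which limits every comparison of a pool.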
